A study of Mus musculus with 18 samples.

Results

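The 7 genes described here encode the machinery by which the kidney proximal tubule takes up filtered protein: Lrp2, Cubn, Amn, Dab2, Clcn5, Ocrl and Lrpap1. They were listed by name as genes of this pathway, and all 7 were found among the 24602 genes of the deposited count table. The table holds RNA-seq counts of 18 mouse libraries in 6 groups of 3, nuclear or total RNA from mice of 3 Nup93 genotypes. Nup93 encodes a scaffold protein of the nuclear pore, and the mice are described as knock-ins on strain 129S1/SvlmJ. The genotypes are wild type (WT), R388W/+ (Het) and R388W/R388W (Hom). The groups are therefore nuclear WT, nuclear Het, nuclear Hom, total WT, total Het and total Hom. No other allele, treatment, age or time is given for any of them. Whether libraries of 1 group are from different animals is not stated, so a p-value here reflects the scatter among libraries, which could be purely technical.

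Megalin (Lrp2) and cubilin (Cubn) are large receptors of the apical brush border that bind albumin, vitamin carrier proteins and many small filtered proteins. Amnionless (Amn) carries cubilin, which has no membrane span of its own, to the cell surface, and the receptor-associated protein RAP (Lrpap1) is the chaperone that shields newly made megalin and related receptors from early ligand binding. Dab2 is the clathrin adaptor that binds the tail of megalin. ClC-5 (Clcn5) exchanges chloride for protons in early endosomes, and OCRL (Ocrl) is an inositol phosphatase needed for endosome recycling. Loss of function of CLCN5 or OCRL in people causes Dent disease or Lowe syndrome, with low molecular weight protein in the urine.

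Some features of the whole data set bear on every value below. The series text names podocytes and the sample labels mouse tissue, but 22 of 22 proximal tubule markers had a mean above 1 CPM (counts scaled to a common depth by the trimmed mean of M values, TMM) and together took 3.93% to 6.69% of the counts per group. The 16 podocyte markers, also all above 1 CPM, took 0.0794% to 0.158%. Xist averaged 515 CPM in nuclear Het, 504 CPM in nuclear Hom and 345 CPM in total WT, but 0.540, 0.624 and 1.25 CPM in nuclear WT, total Het and total Hom, where 4 Y-linked genes summed to 155 to 163 CPM. Each comparison with WT, and each of nuclear with total RNA, thus sets high-Xist against low-Xist libraries, and its effect and that of Xist status cannot be told apart. Hom against Het within a fraction does not cross this line. Low Y-linked sums still differed in nuclear RNA, with 2.32 to 2.93 CPM in Het libraries and 0.509 to 0.746 CPM in Hom libraries. The reason was not tested. The nuclear-retained RNAs Malat1 and Neat1 were not uniformly higher in nuclear libraries: Malat1 had 1745 ± 52.4 CPM (SD, n = 3) in nuclear WT and 2312 ± 93.8 in total WT, 2356 ± 150 and 2021 ± 24.3 in Het, and 2081 ± 193 and 2143 ± 60.4 in Hom. Depth was 17405493 to 23462056 counts per library. The deposited column of total WT replicate 1 was used after subtracting the 9 nuclear columns from it. Total Hom replicate 2 stood apart, with 7.12% of its counts on the ribosomal RNA precursor Rn45s.

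All 7 genes were well covered, the lowest count of any member in any library being 499 (Ocrl), and all 7 passed the low-count filter of every comparison. Lrp2 ranked 12 among all genes by CPM (3310 CPM over the 18 libraries). Per length, as FPKM (CPM per kilobase of the deposited gene length), the members spread widely. Lrp2 averaged 214 FPKM and its chaperone Lrpap1 159, followed by Dab2 at 99.1, Amn at 71.1 and Cubn at 57.7. Transcripts of the endosomal proteins were scarcer, with Clcn5 at 11.2 and Ocrl at 5.44 FPKM. Together the 7 genes took 0.397% ± 0.0200 (SD, n = 3) of the counts in total Hom, the lowest group, and 0.584% ± 0.00492 in total WT, the highest. Lrp2 took 0.403% of the counts in total WT and so sets much of this order. Without it the other 6 genes took 0.1496% ± 0.00691 in total Hom and 0.201% ± 0.00135 in total Het, the lowest and highest groups, and 0.181% ± 0.000624 in total WT. In bulk RNA, fewer cells of a type and less of an RNA per cell cannot be told apart.

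**Figure D1:**
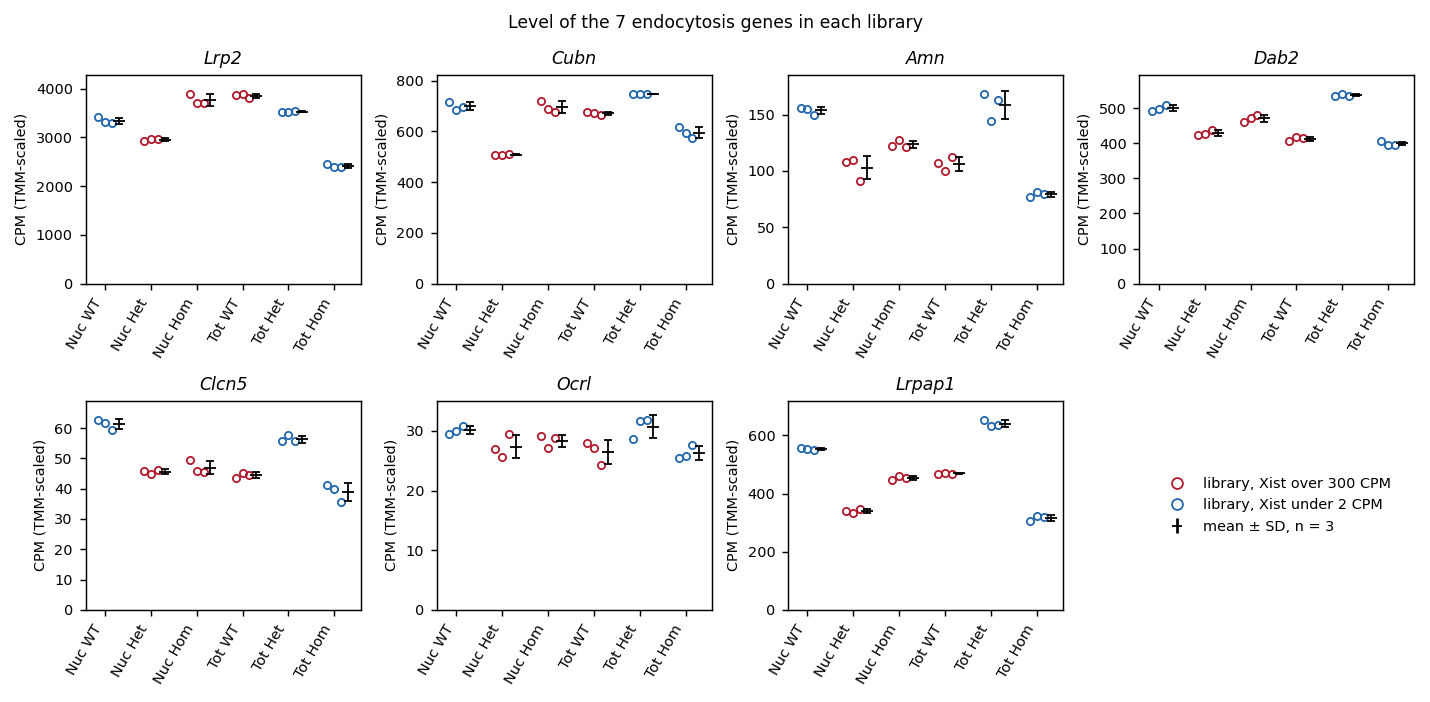
Level of each of the 7 genes in every library (CPM, TMM-scaled, linear axis from 0) by RNA fraction and genotype; open circles are libraries, coloured by Xist level, and black bars the mean ± SD of 3 libraries. Total Hom is the lowest group for 6 genes and total Het the highest for 5, while Lrp2 is highest in total WT and nuclear Hom.

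The stretch of 250 bases before the annotated start is shown for Lrp2, Cubn, Amn, Dab2 and Lrpap1, because these 5 genes were called in the same direction as each other in Hom against Het in both fractions. Sequences are from RefSeq on build GRCm38.p6, which differs from the mm9 build of the counts, in gene orientation, 5′ to 3′: Lrp2 at chr2:69586030-69586279 (minus strand), Cubn at chr2:13491877-13492126 (minus strand), Amn at chr12:111270846-111271095 (plus strand), Dab2 at chr15:6299539-6299788 and chr15:6386498-6386747 (plus strand, 2 annotated starts) and Lrpap1 at chr5:35105700-35105949 (minus strand). Capitals mark matches, on either strand, to the HNF1 core AATNATTAA, the HNF4 core CAAAGTCC, the E-box CACGTG, the GC box GGGCGG, the TATA box TATAAA or the CCAAT box CCAAT; no match shown overlaps another.
Lrp2: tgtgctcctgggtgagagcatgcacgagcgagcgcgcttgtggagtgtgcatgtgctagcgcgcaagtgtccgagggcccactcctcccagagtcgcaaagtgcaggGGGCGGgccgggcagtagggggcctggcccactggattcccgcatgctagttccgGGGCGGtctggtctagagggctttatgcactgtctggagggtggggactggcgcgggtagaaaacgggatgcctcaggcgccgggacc
Cubn: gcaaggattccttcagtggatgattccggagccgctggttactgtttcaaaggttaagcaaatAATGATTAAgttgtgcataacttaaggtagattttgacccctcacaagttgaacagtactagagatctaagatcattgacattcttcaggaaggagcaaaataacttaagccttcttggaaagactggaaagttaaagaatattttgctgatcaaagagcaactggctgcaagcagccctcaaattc
Amn: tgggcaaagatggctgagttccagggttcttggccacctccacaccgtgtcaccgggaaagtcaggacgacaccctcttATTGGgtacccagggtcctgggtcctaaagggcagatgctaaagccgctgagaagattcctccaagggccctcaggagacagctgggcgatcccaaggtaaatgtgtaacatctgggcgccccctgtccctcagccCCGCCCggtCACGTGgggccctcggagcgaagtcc
Dab2 first start: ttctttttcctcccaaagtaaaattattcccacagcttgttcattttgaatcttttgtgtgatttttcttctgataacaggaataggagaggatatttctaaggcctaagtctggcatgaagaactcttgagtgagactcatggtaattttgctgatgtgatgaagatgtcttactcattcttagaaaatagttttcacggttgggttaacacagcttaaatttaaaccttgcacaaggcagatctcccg
Dab2 second start: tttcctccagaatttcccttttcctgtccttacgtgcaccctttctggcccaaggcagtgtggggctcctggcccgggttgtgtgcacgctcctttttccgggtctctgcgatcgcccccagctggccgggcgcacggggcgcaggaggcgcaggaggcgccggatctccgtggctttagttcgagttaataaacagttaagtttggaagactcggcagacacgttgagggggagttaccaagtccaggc
Lrpap1: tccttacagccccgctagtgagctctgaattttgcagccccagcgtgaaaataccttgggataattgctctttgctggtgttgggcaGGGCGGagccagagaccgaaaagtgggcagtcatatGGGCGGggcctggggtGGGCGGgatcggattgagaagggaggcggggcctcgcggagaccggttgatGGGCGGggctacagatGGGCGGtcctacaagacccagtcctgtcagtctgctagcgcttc
The upstream stretch of Cubn is 39.6% G and C and holds 1 HNF1 core, 187 bases before the start, a motif found in 1.40% of 32851 such stretches of mouse genes. Those of Lrp2 (66.4% G and C), Amn (61.2%) and Lrpap1 (60.8%) hold 2, 1 and 5 GC boxes, a motif found in 32.7% of all stretches. Amn also has an E-box 26 bases before its start (6.02% of all) and a CCAAT box (33.8%). The stretches before the 2 starts of Dab2 hold none of these motifs. Across 9 annotated starts of the 7 genes, GC boxes occurred before 5, and the HNF4 core (1.20% of all) and TATA box (12.4% of all) before 1 each. These are matches of letters, not binding sites.

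In nuclear RNA, Hom libraries held more transcript of both receptors and of their partners than Het libraries. Of the 7 genes, 5 were higher and 0 lower at an adjusted p under 0.05, against 43.2% of all 15112 genes tested that were called in either direction. Lrp2 had 3900, 3700 and 3697 CPM in the 3 nuclear Hom libraries and 2928, 2962 and 2974 CPM in the 3 nuclear Het libraries. The groups did not overlap, and the difference was log2 0.34 ± 0.02 (SE; edgeR adjusted p = 3.95e-29), or 1.27-fold. Cubn had 721, 688 and 678 CPM in Hom and 508, 506 and 510 CPM in Het, the largest rise of the 7 (log2 0.45 ± 0.02, edgeR adjusted p = 1.13e-30). Lrpap1 followed, with 448, 462 and 453 CPM in Hom and 340, 335 and 346 CPM in Het (log2 0.41 ± 0.02, edgeR adjusted p = 1.81e-27). Every Hom library lay above every Het library for these 3 genes, and also for Amn and Dab2, described next. How many of all genes are separated in this way was not counted, and 43.2% were called.

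Amn rose less, from 108, 110 and 91.0 CPM in nuclear Het to 122, 127 and 121 CPM in nuclear Hom (log2 0.26 ± 0.05, edgeR adjusted p = 8.44e-05). Its Het libraries were the more scattered, replicate 3 lying below the other 2, and the value was between 0.18 and 0.30 with any 1 library left out. Dab2 rose by log2 0.13 ± 0.02 (edgeR adjusted p = 6.04e-06), from 424 to 439 CPM in Het to 462 to 481 CPM in Hom. The endosomal genes were not called: Clcn5 had 44.7 to 46.3 CPM in Het and 45.6 to 49.4 in Hom (log2 0.04 ± 0.05, edgeR adjusted p = 0.569), and Ocrl 25.6 to 29.4 and 27.1 to 29.1 CPM (log2 0.04 ± 0.06, edgeR adjusted p = 0.578). Both pairs of groups overlapped, and with library totals alone as scaling both values turned negative (Clcn5 -0.02, Ocrl -0.01). The median over the 7 genes was log2 0.26, beside -0.001 over all genes tested.

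Total RNA showed the opposite sign. All 7 genes were lower in Hom than in Het, in a comparison in which 67.0% of the 15051 genes tested were called. Lrpap1 fell the most: its libraries held 653, 632 and 635 CPM in total Het and 306, 324 and 319 CPM in total Hom (log2 -1.02 ± 0.02, edgeR adjusted p = 5.60e-87). Amn was close behind, with 169, 144 and 163 CPM in Het and 77.0, 81.3 and 79.6 CPM in Hom (log2 -0.998 ± 0.055, edgeR adjusted p = 4.47e-10). Transcripts of the receptors' chaperone and of the partner that brings cubilin to the surface thus stood in total Hom at 0.494 and 0.501 times their Het level. Protein was not measured. Neither gene's groups came near overlapping.

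Transcripts of the receptors themselves fell less. Lrp2 had 3521, 3531 and 3537 CPM in total Het and 2451, 2396 and 2384 CPM in total Hom (log2 -0.55 ± 0.01, edgeR adjusted p = 2.66e-83). Cubn had 747, 748 and 749 CPM in Het and 619, 592 and 574 CPM in Hom (log2 -0.33 ± 0.02, edgeR adjusted p = 2.19e-35). For both receptors the Het libraries were tightly grouped and the Hom libraries all lay below them. Clcn5 fell by 0.53 on the log2 scale (SE 0.05, edgeR adjusted p = 1.18e-20), from 55.6 to 57.7 CPM to 35.6 to 41.1 CPM, and Dab2 by 0.43 (SE 0.02, edgeR adjusted p = 4.47e-43), from 535 to 542 CPM to 397 to 406 CPM. Ocrl moved least, from 28.6, 31.7 and 31.8 CPM to 25.5, 25.8 and 27.6 CPM (log2 -0.22 ± 0.06, edgeR adjusted p = 0.000607), and this call was lost with library totals alone (log2 -0.07, edgeR adjusted p = 0.355). Without total Hom replicate 2, as without any other library, all 7 were still called. The median of the 7 was log2 -0.53, beside 0.0062 over all genes.

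**Figure D2:**
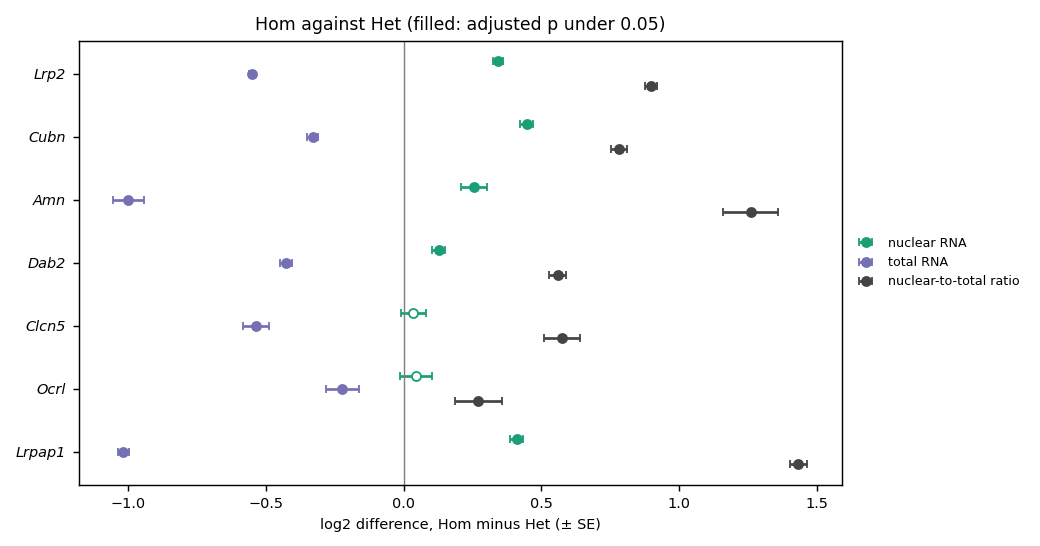
Log2 difference of Hom minus Het (edgeR, ± SE) for each gene in nuclear RNA, in total RNA and in the nuclear-to-total ratio; filled points have an adjusted p under 0.05. Nuclear values lie above 0 (uncalled for Clcn5 and Ocrl, which turn negative with library totals alone), total values all below 0, and the ratio runs from 0.27 (Ocrl) to 1.43 (Lrpap1).

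The difference between the fractions was itself tested. The nuclear-to-total ratio was higher in Hom than in Het for all 7 genes, where 63.6% of 15410 genes were called. It was largest for Lrpap1 (log2 1.43 ± 0.03, edgeR adjusted p = 1.63e-85) and Amn (1.26 ± 0.10, edgeR adjusted p = 8.40e-08), followed by Lrp2 (0.90 ± 0.02, edgeR adjusted p = 1.12e-72) and Cubn (0.78 ± 0.03, edgeR adjusted p = 6.62e-53). Clcn5 (0.58 ± 0.07), Dab2 (0.56 ± 0.03) and Ocrl (0.27 ± 0.08, edgeR adjusted p = 0.00305) were smaller, and the call for Ocrl was lost with library totals alone (0.06, edgeR adjusted p = 0.570). In both genotypes the nuclear libraries are high in Xist and the total libraries low. RNA fraction and Xist status therefore cannot be told apart in this ratio. The total libraries are also the ones with Y-linked RNA, so both fractions of a genotype cannot be of the same animals. The ratio thus compares separate sets of libraries and is not a ratio within a sample.

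Proximal tubule markers moved with the members in both fractions. Beside the counts below, 43.2% of all genes tested were called in nuclear and 67.0% in total Hom against Het. In nuclear RNA 17 of the 22 markers were higher and 3 lower in Hom than in Het (median log2 0.29), and in total RNA 4 were higher and 17 lower (median log2 -0.76). Their summed share was 3.91% to 3.94% of counts in nuclear Het and 4.04% to 4.08% in nuclear Hom, and it was 6.64% to 6.73% in total Het and 3.70% to 4.08% in total Hom. Much of the latter difference was Kap, an androgen-regulated kidney protein, with 22941 ± 511 CPM (SD, n = 3) in total Het and 1829 ± 55.4 in total Hom. Without Kap the other 21 markers took 4.56% to 4.58% in total Het and 3.53% to 3.89% in total Hom. Podocyte markers went the other way in total RNA, with 12 of 16 higher and 2 lower in Hom, and a summed share of 0.0784% to 0.0803% in Het and 0.101% to 0.110% in Hom. In nuclear RNA 8 of the 16 were lower and 2 higher, with 0.122% to 0.126% in Het and 0.111% to 0.114% in Hom. Immune markers took 0.229% to 0.238% of the counts in nuclear Het and 0.0764% to 0.0788% in nuclear Hom, with 13 of 14 lower in Hom; in total RNA 4 were higher and 4 lower (0.134% to 0.135% in Het, 0.141% to 0.152% in Hom). Of these lists only the immune marker Cd3e was under 1 CPM. The part of cell makeup in the members' differences was not tested.

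**Figure D3:**
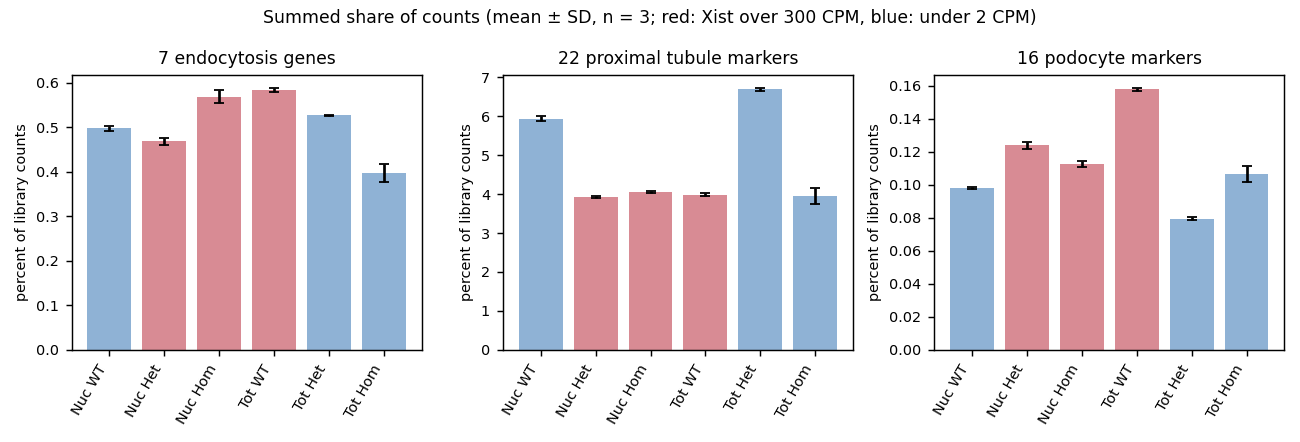
Share of library counts taken by the 7 endocytosis genes, by 22 proximal tubule markers and by 16 podocyte markers in each group (bars from 0, mean ± SD, n = 3; red bars are groups with high Xist). The 7 genes are lowest in total Hom (0.397%), while the proximal tubule markers are high in nuclear WT (5.93%) and total Het (6.69%) and between 3.93% and 4.06% elsewhere; without Kap, which took 1.36% and 2.12% in those 2 groups, the other 21 markers are at 4.58% and 4.57% there and 3.42% to 3.86% elsewhere.

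Against WT, Lrp2 was the one member that was lower in total Het as well as in total Hom. Its total WT libraries held 3866, 3890 and 3807 CPM, above every total Het library and every total Hom library. It was lower in total Hom than in WT by log2 -0.68 ± 0.01 (edgeR adjusted p = 1.38e-94), the largest fall of the 7, and lower in total Het by -0.13 ± 0.01 (edgeR adjusted p = 8.40e-19). The latter call was lost when the deposited column of total WT replicate 1 was used (log2 -0.07, edgeR adjusted p = 0.232). The other 6 genes were all higher in total Het than in WT, Cubn not so with library totals alone: Amn by 0.57 ± 0.05, Lrpap1 by 0.45 ± 0.02, Dab2 by 0.38 ± 0.02, Clcn5 by 0.34 ± 0.05, Ocrl by 0.21 ± 0.06 and Cubn by 0.16 ± 0.02. In that comparison 61.1% of all genes were called. With library totals alone Cubn stood at -0.02 and the call for Ocrl was lost (0.04).

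In total Hom against WT, 6 of the 7 genes were lower and Ocrl was not called, where 61.6% of all genes were called. Lrpap1 fell by 0.57 on the log2 scale (SE 0.02), Amn by 0.43 (SE 0.06), Clcn5 by 0.19 (SE 0.05) and Cubn by 0.17 (SE 0.02). Lrpap1 had 467 to 472 CPM in total WT, between its Het and Hom levels, and Amn had 99.9 to 112 CPM, also between them. Dab2 was at the threshold (log2 -0.05 ± 0.02, edgeR adjusted p = 0.0453), with 406 to 418 CPM in WT and 397 to 406 in Hom, and its call was lost with DESeq2 (DESeq2 adjusted p = 0.0751), under 6 other settings and without any 1 of 7 libraries (adjusted p up to 0.163, without total Hom replicate 3). Those libraries are total WT replicates 2 and 3, total Het replicates 1, 2 and 3, and total Hom replicates 2 and 3. Ocrl had 24.2 to 28.0 CPM in WT and 25.5 to 27.6 in Hom (log2 -0.01 ± 0.06, edgeR adjusted p = 0.916).

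Nuclear Het lay below nuclear WT for 6 of the 7 genes (4 with library totals alone, where Lrp2 reversed and Dab2 lost its call), Ocrl being the one not called, in a comparison with 64.6% of genes called. Lrpap1 again had the largest difference, from 550 to 555 CPM in WT to 335 to 346 CPM in Het (log2 -0.69 ± 0.02, edgeR adjusted p = 6.78e-44). Amn (-0.57 ± 0.05), Cubn (-0.45 ± 0.02) and Clcn5 (-0.41 ± 0.04) followed, then Dab2 (-0.21 ± 0.02) and Lrp2 (-0.17 ± 0.02). With library totals alone the Lrp2 value was 0.01 and the Dab2 value -0.03, and 10694 of 15112 genes were called. Ocrl was just past the threshold (-0.13 ± 0.06, edgeR adjusted p = 0.0552) and was called with RLE size factors (edgeR adjusted p = 0.0409), with no low-count filter (0.0391), without nuclear Het replicate 3 (0.0121) and without nuclear Hom replicate 1 (0.0464).

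Nuclear Hom differed from nuclear WT in a mixed way, with 1 gene higher, 4 lower and 2 not called, where 54.3% of genes were called. Lrp2, the gene that was higher, had 3293 to 3414 CPM in WT and 3697 to 3900 in Hom (log2 0.18 ± 0.02, edgeR adjusted p = 3.36e-14). Clcn5 was lower (-0.38 ± 0.04, edgeR adjusted p = 2.41e-12), with 59.4 to 62.7 CPM in WT. Amn (-0.31 ± 0.05), Lrpap1 (-0.28 ± 0.02) and Dab2 (-0.08 ± 0.02) were lower too, Dab2 turning to 0.04 with library totals alone and losing its call under a stricter filter (edgeR adjusted p = 0.0881). Cubn had 685 to 718 CPM in WT and 678 to 721 in Hom and did not differ beyond that spread (log2 -0.0022 ± 0.0233, edgeR adjusted p = 0.944), though with library totals alone it was called higher (0.12, edgeR adjusted p = 4.68e-06). Het and Hom are compared here with the same WT libraries, so these comparisons are not independent.

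Cell type markers moved in the comparisons with WT as well. In nuclear Het against WT 1 of 22 proximal tubule markers was higher and 19 lower, with 12 of 16 podocyte markers higher and 2 lower, and 13 of 14 immune markers higher and 0 lower (median log2 2.09). In nuclear Hom against WT the proximal tubule markers split 3 higher and 18 lower, the podocyte markers 8 and 3, and the immune markers 8 and 2. In total Het against WT 17 proximal tubule markers were higher and 4 lower, while podocyte (1 higher, 15 lower), endothelial (1 and 11 of 12) and distal nephron markers (0 and 14 of 14) were mostly lower. In total Hom against WT, where 6 members were lower, the proximal tubule markers split 11 higher and 10 lower and the podocyte markers 4 and 9. The summed share of proximal tubule markers was 5.86% to 5.995% in nuclear WT and 3.96% to 4.02% in total WT (4.56% to 4.59% and 3.39% to 3.45% without Kap). The part of these markers in the members' differences was not tested.

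**Figure D4:**
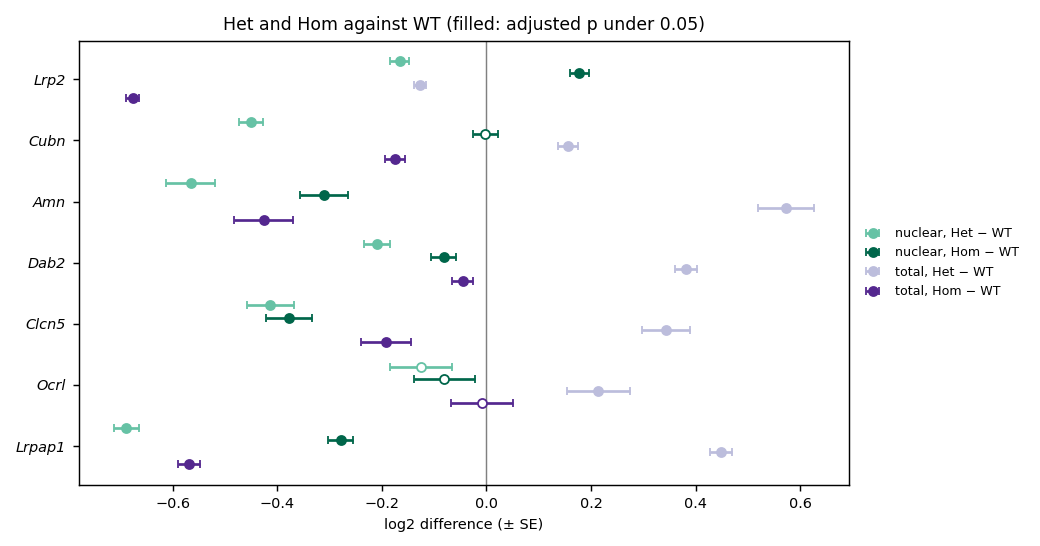
Log2 difference of Het and of Hom from WT (edgeR, ± SE) for each gene in nuclear and total RNA; filled points have an adjusted p under 0.05. Total Het lies above 0 for every gene but Lrp2 (Cubn turns negative with library totals alone), and nuclear Hom lies above 0 among called genes for Lrp2 alone.

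The direction in which nuclear and total libraries differed was not the same in all genotypes. In WT the nuclear libraries are low in Xist and the total libraries high, the reverse of Het and Hom. Fraction and Xist status cannot be told apart within a genotype, nor genotype and Xist layout between WT and the others. Among WT libraries, nuclear RNA held less Lrp2 than total RNA (log2 -0.21 ± 0.02) and more of the other 6 genes, from 0.05 ± 0.02 for Cubn (which reversed with library totals alone) to 0.52 ± 0.07 for Amn, with 61.7% of genes called. The Cubn call was lost with DESeq2 (DESeq2 adjusted p = 0.0959), without nuclear WT replicate 1 (0.04, edgeR adjusted p = 0.189) and without total WT replicate 3 (0.05, edgeR adjusted p = 0.0928), and its value with library totals alone was -0.11. Without total WT replicate 3 the Ocrl call was lost as well (log2 0.11, edgeR adjusted p = 0.126). In Het all 7 were lower in nuclear RNA, from -0.17 ± 0.06 for Ocrl to -0.91 ± 0.02 for Lrpap1, where 63.6% of genes were called. With library totals alone 4 of those 7 were called, where 11055 of 15410 genes were called, 77.3% of these higher. The Ocrl call was also lost without nuclear Het replicate 2 (-0.12), total Het replicate 2 or total Het replicate 3 (both -0.14).

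Of the proximal tubule markers, 21 were higher in nuclear than in total WT and 0 lower, with 5 and 17 in Het and 13 and 7 in Hom, and the podocyte markers 1 and 13, 13 and 2, and 9 and 5. In Hom, 6 members were higher in nuclear RNA and Ocrl was not called (log2 0.11 ± 0.06, edgeR adjusted p = 0.111), with 60.3% of genes called. Lrp2 and Amn stood 1.56-fold higher in nuclear than in total Hom (log2 0.64 ± 0.02 and 0.64 ± 0.07), Lrpap1 by 0.52 ± 0.02, and Clcn5, Dab2 and Cubn by 0.27 ± 0.05, 0.24 ± 0.02 and 0.23 ± 0.02. The Xist levels of the nuclear and total libraries are reversed between Hom and WT, so a difference in their ratios cannot be told apart from Xist status. Relative to WT, the nuclear-to-total ratio of Hom was higher for 3 genes and lower for 1, with 56.1% of genes called. Those higher were Lrp2 (0.86 ± 0.02, edgeR adjusted p = 2.14e-70), Lrpap1 (0.29 ± 0.03) and Cubn (0.18 ± 0.03). Clcn5 was lower (-0.18 ± 0.06, edgeR adjusted p = 0.0119), a call lost without total Hom replicate 1 (-0.14, edgeR adjusted p = 0.0739), with library totals alone (-0.04) and with the deposited column of total WT replicate 1 (-0.11). Amn (0.12 ± 0.10), Dab2 (-0.03 ± 0.03) and Ocrl (-0.07 ± 0.08) were not called, though Amn was with library totals alone (0.27) and with only the groups compared (0.12), and Dab2 with library totals alone (0.11).

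The order of the 6 groups differed between members. Lrp2 ran, from low to high, total Hom, nuclear Het, nuclear WT, total Het, nuclear Hom and total WT, and of neighbouring groups nuclear Hom and total WT alone overlapped. Lrpap1 ran total Hom, nuclear Het, nuclear Hom, total WT, nuclear WT and total Het, with no overlap between neighbours. Amn, Dab2, Cubn and Ocrl also ended with nuclear WT and total Het. With library totals alone Lrpap1 and Amn still ended so, but Dab2, Cubn and Ocrl did not. Clcn5 was highest in nuclear WT (61.2 ± 1.68 CPM, SD, n = 3). For Ocrl 4 of the 5 neighbouring pairs overlapped, and its highest group (total Het, 30.7 ± 1.87 CPM) and lowest group (total Hom, 26.3 ± 1.13 CPM) differed by 1.17-fold. The same measure was 2.02-fold for Lrpap1 and 1.999-fold for Amn.

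The receptor transcripts did not move in a fixed ratio to each other. Cubn transcript per Lrp2 transcript, a ratio of FPKM, was 0.235 ± 0.00189 (SD, n = 3) in nuclear Het, 0.238 ± 0.00135 in total WT and 0.252 ± 0.00187 in nuclear Hom. It was 0.286 ± 0.00380 in nuclear WT, 0.289 ± 0.000324 in total Het and 0.337 ± 0.00791 in total Hom. The 9 high-Xist libraries lay between 0.233 and 0.254 and the 9 low-Xist libraries between 0.282 and 0.345, with no overlap. This split was noticed in the data and is given as a description. Lrpap1 per Lrp2 was 0.965 ± 0.0195 in total Het and 0.881 ± 0.0132 in nuclear WT, and between 0.613 and 0.698 in the other 4 groups. Dab2 per Lrp2 was lowest in total WT (0.358 ± 0.00682) and highest in total Hom (0.555 ± 0.00139).

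**Figure D5:**
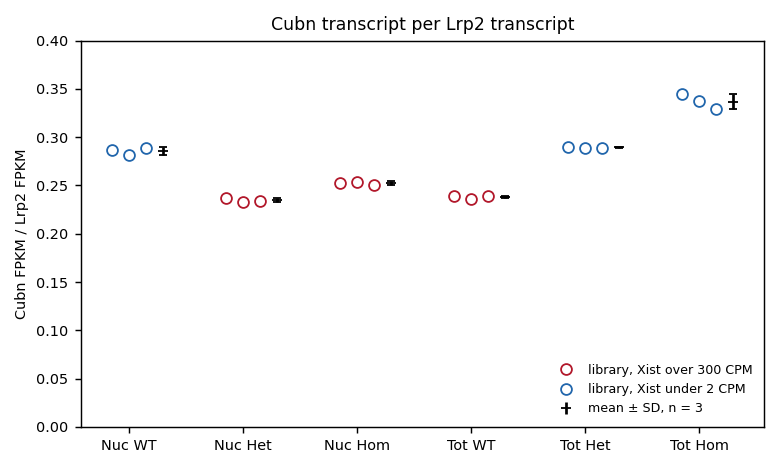
Cubn FPKM divided by Lrp2 FPKM in each library, by group (axis from 0; open circles are libraries, black bars the mean ± SD, n = 3). The 3 groups with high Xist lie below the 3 groups with low Xist.

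Among the 7 genes, the levels of Amn and Lrpap1 (Pearson r 0.910), Amn and Dab2 (0.907) and Amn and Clcn5 (0.906) were most alike across the 18 libraries, and those of Lrp2 and Ocrl least (0.319). Lrp2 and Cubn, which act together, had r 0.638. The 18 points are 6 groups of 3 libraries, so these values describe little more than the order of the group means. Of 11232 genes averaging 5 CPM or more, the one most like Lrp2 was Acy1, an aminoacylase (r 0.972), followed by Siae (0.961) and Scly (0.958). Lrpap1 was most like Anpep, the brush border aminopeptidase N (0.991), and Cubn most like Agmat (0.949). For Amn, Dab2, Clcn5 and Ocrl the nearest genes were Ethe1 (0.977), Dhrs4 (0.982), Glb1l (0.976) and Alg11 (0.939).

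The wider pathway was followed with 5 lists. Over all genes tested, 43.2% were called in nuclear and 67.0% in total Hom against Het, the shares to set beside each list's counts. Of 13 receptors related to megalin, 12 were tested, and in nuclear RNA 4 were higher and 3 lower in Hom than in Het (median log2 0.02), in total RNA 5 and 5 (0.03). The endocytic receptor Lrp1 was lower in nuclear Hom (-0.45 ± 0.04) and higher in total Hom (0.23 ± 0.04), the reverse of Lrp2. Lrp6, a Wnt co-receptor, was higher in nuclear Hom (0.14 ± 0.03) and lower in total Hom (-0.34 ± 0.03), and Lrp11 was lower in total Hom (-0.91 ± 0.08). The clathrin coat and adaptors split evenly in nuclear RNA, with 7 of 22 higher and 7 lower, while in total RNA 6 were higher and 12 lower (median -0.14). The smallest p in nuclear RNA belonged to Cd2ap, an adaptor that links to the actin cytoskeleton, which was lower in Hom (-0.34 ± 0.03, edgeR adjusted p = 5.67e-18), unlike the members. Ap2a2, a subunit of the AP-2 adaptor, was higher in nuclear (0.13 ± 0.03) and lower in total Hom (-0.47 ± 0.02), and the clathrin heavy chain Cltc was lower in total Hom (-0.25 ± 0.02).

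Of 30 genes of endosome sorting and recycling, 8 were higher and 3 lower in nuclear Hom than in nuclear Het (median 0.02). In total Hom 6 were higher and 16 lower (median -0.10). The shares called over all genes were 43.2% in nuclear and 67.0% in total RNA. Rab11fip3, an effector of the recycling GTPase Rab11, fell by 0.77 (SE 0.02) in total Hom and Inpp5b, the phosphatase closest to OCRL, by 0.42 (SE 0.03), while Ehd4 rose (0.87 ± 0.03); in nuclear Hom Ehd4 was lower (-0.30 ± 0.03) and Rab11fip3 higher (0.18 ± 0.02). Endosome acidification had 7 of 18 tested genes higher and 2 lower in nuclear Hom (median 0.03), and 2 higher and 14 lower in total Hom (median -0.39). The proton pump subunits Atp6v1a (-0.72 ± 0.02) and Atp6v1b2 (-0.73 ± 0.02) and the exchanger Clcn3 (-0.58 ± 0.03), a relative of ClC-5, were among those lower.

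Slc9a8, a sodium-proton exchanger, stood out in this list. It had 59.6 ± 2.60 CPM (SD, n = 3) in total Hom, 374 ± 3.66 in total Het and 454 ± 11.4 in total WT, a difference of Hom from Het of log2 -2.65 ± 0.03 (edgeR adjusted p = 1.34e-127). In nuclear RNA it held 225 to 267 CPM in all 3 genotypes. Of the genes that handle the cargo, 16 were tested, with 10 higher and 3 lower in nuclear Hom than in nuclear Het (median 0.19). In total Hom 2 were higher and 9 lower (median -0.23). The shares called over all genes were again 43.2% and 67.0%. In total RNA the smallest p belonged to Gc, the vitamin D carrier, which was higher in Hom (2.66 ± 0.05, edgeR adjusted p = 1.54e-94), against the direction of the members, followed by the retinol carrier partner Ttr, which was lower (-1.87 ± 0.03). Pth1r, the parathyroid hormone receptor, was higher in nuclear Hom (0.43 ± 0.02) and lower in total Hom (-1.01 ± 0.02), the direction of the members. Tcn2, the vitamin B12 carrier bound by megalin, was lower in total Hom (-0.82 ± 0.02), and B2m, a filtered ligand, was lower in nuclear Hom (-1.07 ± 0.03). B2m had 713 ± 11.3 CPM (SD, n = 3) in nuclear Het, also the group highest in immune markers, and 277 to 415 CPM in the other groups. The part of immune cells in this difference was not tested. Cyp24a1 (-0.68 ± 0.03) and Cyp27b1 (-1.29 ± 0.09), enzymes of vitamin D metabolism, were lower in nuclear Hom too.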

How the data were processed

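Per the labels' protocols, TRIzol was used for extraction and a KAPA Stranded mRNA kit for the libraries. The tools CASAVA, STAR 2.5.2b, featureCounts, DESeq2 and build mm9 are named without order or settings, per the submitters' processing notes; annotation and strand setting are not given in the sources used here. The authors deposited raw counts by gene symbol in 1 table; its length column served for FPKM only. Total WT replicate 1 summed to 200140709 counts and held, in every gene, at least the summed counts of the 9 nuclear columns (181106189 in all), which were subtracted, leaving 19034520.

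Tests used edgeR 4.0.16 under R 4.3.3 (TMM scaling, filterByExpr, robust quasi-likelihood, BH-adjusted p under 0.05) over all genes. One fit held the 9 libraries of a fraction (15112 nuclear and 15051 total genes), another all 18 (15410 genes) for the nuclear-to-total comparisons. Errors of log2 values are SE. Fits were tested on simulated data. Alternatives were DESeq2 1.42.0, other scalings and filters, other sets of libraries, a replicate block, the deposited column, and omission of Rn45s or of each library. The members, gene lists and comparisons were chosen with earlier results of these data known. All 7 members were named in every comparison. Of each list, called genes with the smallest p could be named, at most 4 in Hom against Het and 2 elsewhere. Only some of these are named in Hom against Het, and none is named with its test elsewhere. The genes most like each member are named, and a few further values were named after being seen. A gene that met the rule is not reported here. Sums without Kap or Lrp2 were added after seeing the data. Markers of mesangial and stromal cells (9 of 10 tested), endothelium (12) and the distal nephron (14) were also counted: in total Hom against Het 3, 11 and 11 were higher and 3, 0 and 3 lower, and in nuclear RNA 1, 6 and 7 were higher and 4, 1 and 4 lower. Clcn5 overlaps 5 microRNA genes of the table, and with the strand setting unknown reads of overlapping genes cannot be told apart.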

Additional observations from a re-analysis of the deposited data

Results flagged for a closer look

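The nuclear-to-total ratio differed between Hom and Het, by the interaction term of the edgeR fit, for all 7 genes (log2, Hom minus Het): Lrp2 0.90, Cubn 0.78, Amn 1.26, Dab2 0.56, Clcn5 0.58, Ocrl 0.27 and Lrpap1 1.43. Between Hom and WT it differed for Lrp2 (0.86), Cubn (0.18), Clcn5 (-0.18) and Lrpap1 (0.29). The first set of ratios rests on a rise in nuclear RNA for 5 genes and a fall in total RNA for all 7, and 63.6% of all genes tested had a called ratio in Hom against Het. In Hom against WT, 56.1% of all genes had one. RNA fraction and Xist status cannot be told apart in either, and neither is a ratio within a sample. The limits of the ratios are not the same. Hom and Het both have high Xist in nuclear and low Xist in total libraries, while WT has the reverse. The ratio of Hom against WT therefore also sets opposite Xist layouts against each other, and genotype and Xist status cannot be told apart in it.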

How the results depend on the processing

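Of 1722 values of single genes under an alternative, 1659 kept their direction and side of the threshold. With the sign kept, 34 lost a call and 6 gained one, and 23 values changed sign. Of these 23, 5 concerned a called value, of which 1 was still called with the other sign, and 12 came with library totals alone. Calls lost or gained with a change of sign are counted among the 23 only. That scaling shifted the median of all genes by -0.05 in nuclear and 0.15 in total Hom against Het and -0.21 in their ratio, and the share of called genes that were higher moved from 49.6% to 33.5%, 49.1% to 68.4% and 49.8% to 29.1%. With it, Clcn5 (-0.0196) and Ocrl (-0.0107) reversed in nuclear Hom against Het, and Cubn (0.12), Dab2 (0.0408) and Ocrl (0.0419) in nuclear Hom against WT. Lrp2 (0.0122) and Ocrl (0.0526) reversed in nuclear Het against WT, and Cubn in total Het against WT (-0.0229) and in nuclear against total WT (-0.11). Ocrl reversed in nuclear against total Het (0.0348), where 4 members were called in place of 7, beside 11055 of all 15410 genes. Dab2 (0.11) and Ocrl (0.0768) reversed in the ratio of Hom against WT. Cubn in nuclear Hom against WT also changed sign with genes averaging 5 CPM or more (0.0332) and with only the groups compared (0.0017), and the Dab2 ratio of Hom against WT with the deposited column of total WT replicate 1 (0.0217). With 1 library left out, Clcn5 in nuclear Hom against Het ran from -0.0035 to 0.0507, Cubn in nuclear Hom against WT from -0.0316 to 0.0167, and Ocrl in total Hom against WT from -0.0701 to 0.0347. The causes were not tested. Replicate numbers did not pair samples of different genotypes within a fraction (r from -0.123 to 0.082 between deviations of same-numbered libraries). Pairing between nuclear and total libraries was not examined. With the replicate block 5 genes were called in nuclear and 7 in total Hom against Het. With it 1 call was lost, Dab2 in total Hom against WT (log2 -0.05, edgeR adjusted p = 0.0576). Removing Rn45s changed no call. For levels, the order of the group means of Amn and Lrpap1 was the same with library totals alone, and that of the other 5 genes was not. The SE and SD values given cover the scatter among libraries, which could be purely technical.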

Other observations

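The levels of 5 further genes are given as values and were chosen after those values were seen. Cyp24a1, which breaks down active vitamin D, held 123 to 196 CPM in the 3 nuclear groups and 53.5 to 62.7 CPM in the 3 total groups. Cyp27b1, which makes active vitamin D, was lowest in nuclear Hom (7.13 ± 0.536 CPM, SD, n = 3) and highest in nuclear WT (33.2 ± 1.32). The vitamin D carrier Gc stood at 340 ± 6.60 CPM in nuclear Het, 364 ± 7.79 in nuclear Hom and 175 ± 1.07 in total WT, the high-Xist groups, and at 13.8 to 87.9 CPM in the others. Havcr1, the tubule injury marker KIM-1, had 113 ± 1.89 CPM in total WT, 57.6 ± 1.80 in total Het and 13.9 ± 1.12 in total Hom. Acy1, the gene most like Lrp2, had 569 ± 4.76 CPM in total WT and 160 ± 4.97 in total Hom.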
